A study of Mus musculus with 4 samples.

Results

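Chemokine and egress receptors decide where a circulating leukocyte stops and when it leaves a tissue. The 10 receptors described here are 10 of the 32285 genes in the deposited matrices, chosen by symbol: the CC chemokine receptors Ccr2, Ccr6 and Ccr9, the CXC receptors Cxcr3, Cxcr4, Cxcr5 and Cxcr6, the fractalkine receptor Cx3cr1, and the sphingosine 1-phosphate receptors S1pr4 and S1pr5. They were read in mononuclear blood cells of 2 inbred strains of mice, BL/6 and SM/J, at 12 and 20 months of age, from blood drawn at the heart. Both ages of a strain were mixed in 1 multiplexed 10x Genomics library and run, so strain cannot be told apart from run. The authors deposited 1 matrix of single cells for each strain and age, and these 4 matrices are called libraries here. No allele, transgene or treatment is given for any group. No library has a replicate. Cells of a library carry 1 of 3 tags and are called aliquots by tag; whether a tag is an animal is not stated.

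These receptors couple to inhibitory G proteins and steer cells along gradients of a ligand. Chemokine receptors such as Ccr2 and Cxcr5 pull cells towards marrow, inflamed tissue or follicles, whereas sphingosine 1-phosphate, which is rich in blood, draws cells out of marrow and lymphoid tissue. In mouse blood, Ccr2 marks classical monocytes, which leave the marrow through it, and Cx3cr1 with S1pr5 marks the patrolling nonclassical monocytes. Natural killer (NK) cells also use S1pr5 to enter the circulation.

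The 4 libraries held 18234645 unique molecules (UMIs) in BL/6 at 12 months, 19466469 in BL/6 at 20 months, 14250603 in SM/J at 12 months and 30627357 in SM/J at 20 months. After filtering, 3398, 3102, 2407 and 2689 cells remained in that order, 11596 in all, with median depths of 4060, 4914, 4729 and 8837 UMIs. The SM/J library of 20 months stood apart. Its median depth was the highest, and it held 398 macrophage-like cells against 30, 38 and 35 in the others. Its B cells included 846 cells of a cluster, numbered 26, that held 15 cells in SM/J at 12 months and none in BL/6. Libraries of a strain shared 0 cell barcodes, and libraries of different strains shared 1 to 3. Levels below are UMIs per 1000000 (CPM) of all UMIs of a class in a library, with exact Poisson 95% intervals in the plots. All intervals cover counting error only. In a sum over many cells, fewer expressing cells and less RNA per cell cannot be told apart. A CPM is a share of all UMIs, so in deeper cells it can be lower without fewer UMIs of the gene per cell.

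The members' genes were placed on GRCm38 by the GENCODE vM21 annotation, and 6 of the 10 lie on chromosome 9. Ccr9 (chr9:123678439-123784330), Cxcr6 (chr9:123806475-123811760) and Ccr2 (chr9:124101950-124113557) are neighbours on the plus strand, within 435.1 kb. On the minus strand of the same chromosome lie Cx3cr1 (chr9:119901616-120069879), S1pr5 (chr9:21242912-21248443) and Cxcr5 (chr9:44511787-44561877). The others are Cxcr3 (chrX:101731535-101734269), Cxcr4 (chr1:128588199-128592293) and S1pr4 (chr10:81497747-81500132) on the minus strand and Ccr6 (chr17:8236043-8257141) on the plus strand. The gene models of Cx3cr1 and Ccr9 overlap other genes on both strands, and those of Cxcr5, Cxcr6 and S1pr5 overlap genes on the other strand. How the counting handled reads shared with those genes is not given in the sources used here.

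Ccr2 marks classical monocytes, and Cx3cr1 and S1pr5 are the receptors of the nonclassical class named above, so the 250 bases upstream of each RefSeq start (GRCm38.p6) are shown, 5′ to 3′ on the gene's strand, with each CCACCC and its reverse complement GGGTGG in capitals. CCACCC is the core that Klf2, an inducer of sphingosine 1-phosphate receptors, and related factors bind. The Ccr2 stretch is chr9:124101933-124102182 (plus strand), the Cx3cr1 stretch is chr9:120068297-120068546 and the S1pr5 stretch is chr9:21248444-21248693 (both minus strand). The RefSeq starts of Ccr2 and Cx3cr1 lie inside the longer GENCODE models.
Ccr2: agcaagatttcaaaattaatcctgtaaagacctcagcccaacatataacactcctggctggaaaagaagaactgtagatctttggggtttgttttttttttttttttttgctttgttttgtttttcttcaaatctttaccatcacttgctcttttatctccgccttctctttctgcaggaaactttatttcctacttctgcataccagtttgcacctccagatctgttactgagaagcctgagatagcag
Cx3cr1: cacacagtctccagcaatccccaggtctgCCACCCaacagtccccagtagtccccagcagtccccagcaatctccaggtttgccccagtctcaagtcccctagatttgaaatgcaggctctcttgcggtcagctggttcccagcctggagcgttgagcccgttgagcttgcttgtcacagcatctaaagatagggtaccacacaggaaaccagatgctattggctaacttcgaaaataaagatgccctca
S1pr5: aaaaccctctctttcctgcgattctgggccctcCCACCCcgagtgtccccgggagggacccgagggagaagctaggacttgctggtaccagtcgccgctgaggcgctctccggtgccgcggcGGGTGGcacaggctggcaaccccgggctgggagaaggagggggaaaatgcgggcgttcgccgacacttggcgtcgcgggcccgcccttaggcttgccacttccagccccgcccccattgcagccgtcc
The motif on either strand was in 28.1% of 32851 upstream stretches of this length. It occurred 2 times before S1pr5, beginning 217 and 128 bases before the start, 1 time before Cx3cr1, 221 bases before the start, and 0 times before Ccr2. Of the 9 members with a stretch in the table, Ccr9 and S1pr4 also held it. The GC content was 69.2% for S1pr5, 53.6% for Cx3cr1 and 37.2% for Ccr2. The core bound by Nr4a1, which nonclassical monocytes need, AAAGGTCA, was in 1.34% of all stretches, and AGGTGT, bound by T-bet, in 11.8%. Neither was in the stretch of any member. These are matches of letters, not sites.

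Ccr2, the receptor for Ccl2, was high in classical monocytes. Its level there was 1298 CPM in BL/6 at 12 months, 1280.4 in BL/6 at 20 months, 948 in SM/J at 12 months and 1392 in SM/J at 20 months. Nearly every classical monocyte carried a Ccr2 UMI: 97.5%, 98.1%, 95.6% and 98.0% of cells in that order, at median depths of 6847 to 8657 UMIs. B cells, which should lack the gene, carried one in 1.17% to 2.22% of cells at median depths of 3423 to 9661.5 UMIs. The BL/6 ages differed little (log2 ratio of CPM + 1, 20 over 12 months, -0.02, interval -0.08 to 0.04), and their aliquots overlapped. In SM/J the 20-month library was higher by 0.55 (0.42 to 0.69), short of 1.5-fold, and its aliquots at 1318 to 1446 CPM lay above the 884 to 995 CPM of the younger library. Plasmacytoid dendritic cells of SM/J also carried much Ccr2, at 922 CPM in 43 cells and 1149.8 CPM in 25 cells. In BL/6 that class had 6 and 11 cells, with 10 and 18 Ccr2 UMIs. Small groups of mixed dendritic cell genes also reached 640.2 and 973 CPM in BL/6 (23 and 40 cells) and 1172 CPM in SM/J at 20 months (21 cells). Of these, 17 of the 21 SM/J cells and 8 of the 40 BL/6 cells lay in a subcluster with the macrophage gene Mrc1 among its leading genes.

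**Figure D1:**
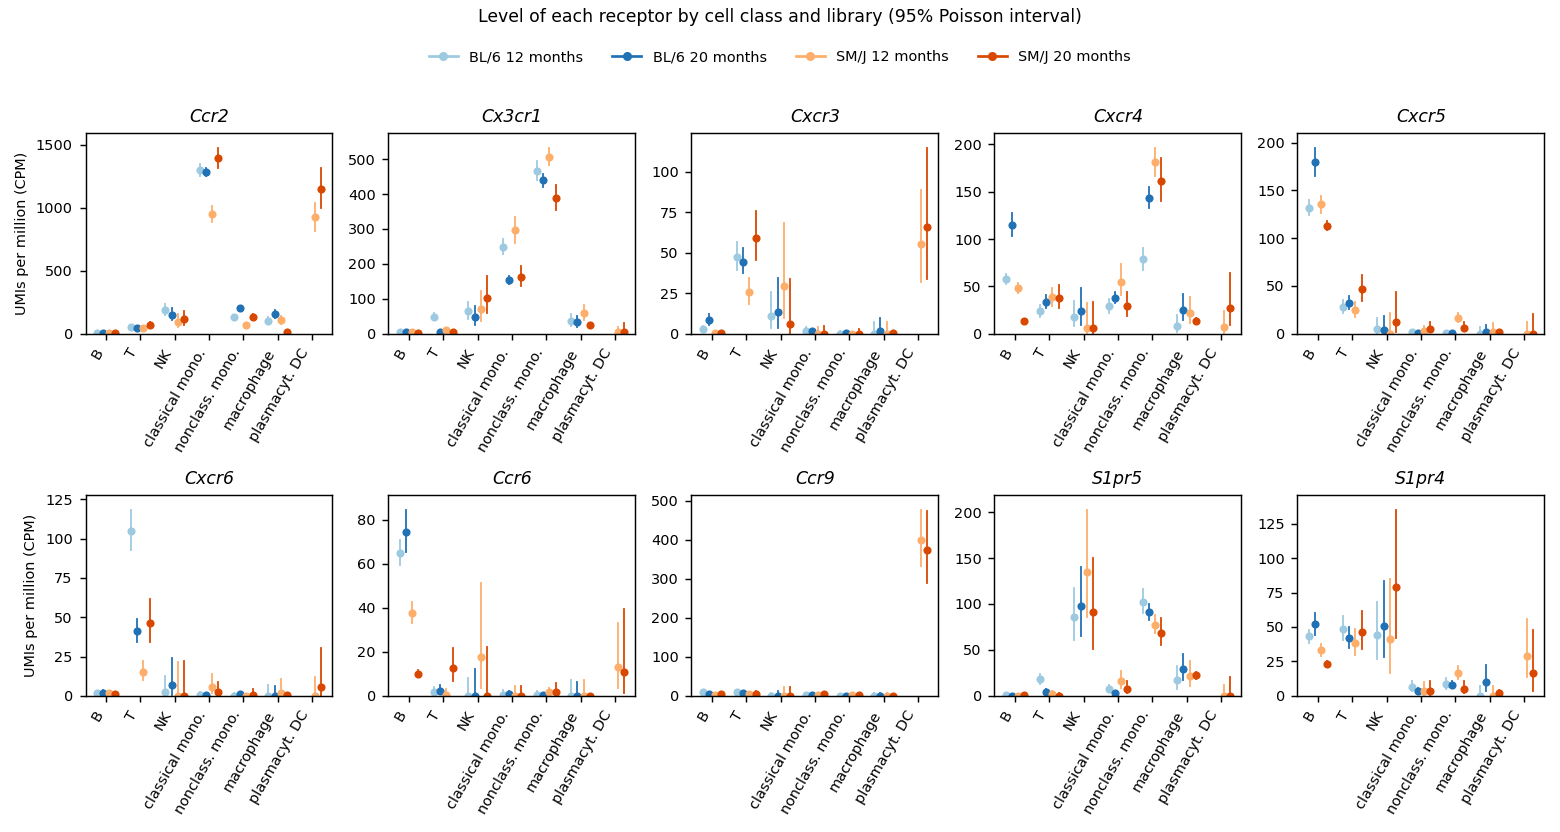
CPM (y axis, linear, one scale per receptor) of each of the 10 receptors in 7 cell classes (x axis) of the 4 libraries, drawn for classes with at least 20 cells in a library; dots are class sums and bars exact Poisson 95% intervals. Ccr2 stands at 948 CPM or more in all 4 classical monocyte sums, Cx3cr1 peaks in nonclassical monocytes, Cxcr5 in B cells, Cxcr6 in T cells and Ccr9 in plasmacytoid dendritic cells. Ccr6 peaks in B cells except in SM/J at 20 months, where T cells stand at 12.6 CPM and B cells at 10.1 CPM.

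Nonclassical monocytes carried far less Ccr2, and more of it at 20 months in both strains. The level was 128 CPM in BL/6 at 12 months, 207 in BL/6 at 20 months, 70.7 in SM/J at 12 months and 135 in SM/J at 20 months. The older library was higher by 0.68 on the log2 scale in BL/6 (0.50 to 0.87) and by 0.92 in SM/J (0.63 to 1.22). The BL/6 aliquots did not overlap (92.4 to 157 CPM against 194 to 230.4 CPM), and the SM/J aliquots did (52.9 to 93.9 against 89.5 to 152 CPM). The share of nonclassical monocytes with a Ccr2 UMI was 26.1% at 12 and 49.1% at 20 months in BL/6, and 24.3% and 35.5% in SM/J. Thinned to 1000 UMIs per cell, with 1, 2, 6 and 1 shallower cells left out, these shares were 7.12%, 17.6%, 6.72% and 10.5%. Classical monocyte markers moved with the SM/J values and not with those of BL/6: the summed level of the 8 markers, all detected in every library, was 446, 414, 433 and 796 CPM in the same order. Erythroid markers in this class summed to 49.1 and 1126 CPM in BL/6 and to 2254 and 80.8 CPM in SM/J, with Slc4a1 at 0 in all 4 libraries. Their part in the result was not tested.

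The BL/6 difference depended on where the line between the monocyte classes was drawn. Clustered more finely, at a resolution of 2.0, a BL/6 cluster of 168 and 184 cells with Ccr2 at 951 and 1145 CPM, mostly classical in the main clustering, was named nonclassical, and the class ratio became -0.047. Within the finer cluster whose 302 and 669 BL/6 cells were all nonclassical in both clusterings, Ccr2 was 91.4 CPM at 12 months and 201 CPM at 20 months.

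Cx3cr1, the receptor for fractalkine, had its highest level in nonclassical monocytes, at 466 and 439 CPM in BL/6 and 508 and 389 CPM in SM/J at 12 and 20 months. The log2 ratio of the BL/6 values was -0.08 (-0.19 to 0.02), and their aliquots overlapped. The SM/J value of 20 months was lower by 0.38 on the log2 scale (-0.53 to -0.24), with aliquots of 346 to 439.9 CPM against 483 to 549 CPM.

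Classical monocytes carried less Cx3cr1, and the older library was lower in both strains. The level was 249 CPM in BL/6 at 12 months, 154 in BL/6 at 20 months, 296 in SM/J at 12 months and 163 in SM/J at 20 months. The log2 ratio was -0.69 in BL/6 (-0.85 to -0.53) and -0.86 in SM/J (-1.17 to -0.55). Aliquots did not overlap in either strain: 237.7 to 269.1 against 143 to 175 CPM in BL/6, and 252 to 341 against 152 to 172 CPM in SM/J. The summed level of the 8 classical markers was higher in the older library of both strains, at 4388 and 5188 CPM in BL/6 and 5997 and 10213 CPM in SM/J, and that of the 8 nonclassical markers was 844 and 803 CPM in BL/6 and 1148 and 984 CPM in SM/J. Their part in the lower Cx3cr1 was not tested.

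Ccr2 and Cx3cr1 were often seen in the same cell. Among classical monocytes, both receptors had a UMI in 76.1% and 61.3% of BL/6 cells and in 74.6% and 55.6% of SM/J cells at 12 and 20 months. Among nonclassical monocytes the BL/6 shares with both were 23.6% and 43.1%, and those of SM/J 22.3% and 27.3%. Before thinning, the share with both was lower in classical and higher in nonclassical monocytes of the older library in both strains. Thinned to 1000 UMIs, the classical shares were 15.9%, 8.19%, 14.9% and 16.2% in the order BL/6 12, BL/6 20, SM/J 12 and SM/J 20 months, so the SM/J order did not hold. The nonclassical shares were then 3.13%, 6.69%, 2.24% and 2.34%.

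**Figure D2:**
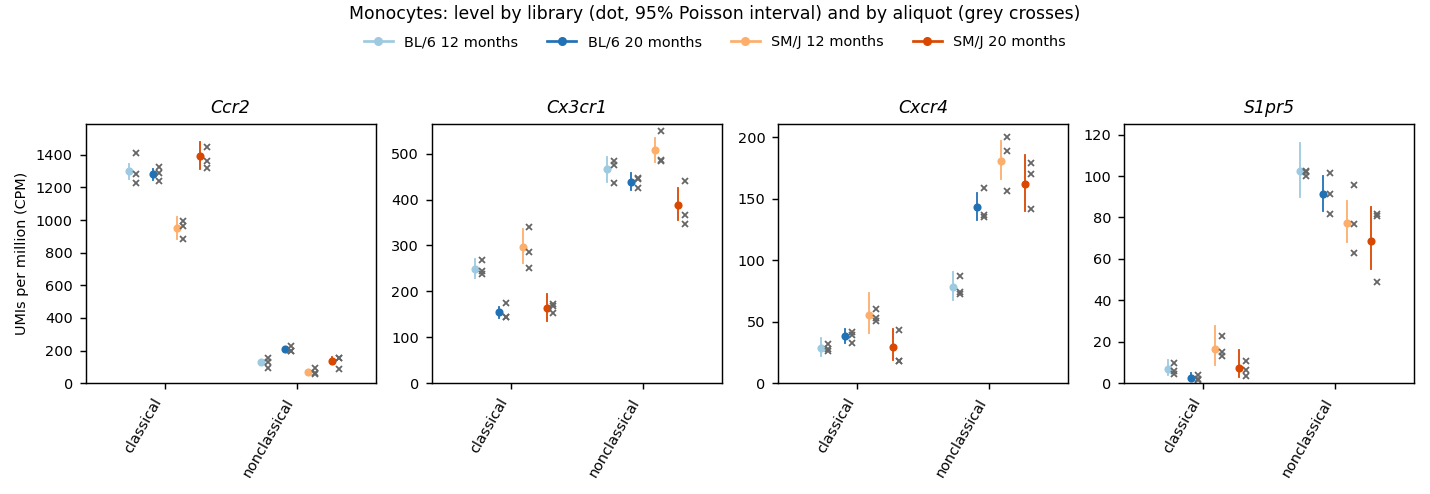
CPM (y axis, linear, one scale per receptor) of Ccr2, Cx3cr1, Cxcr4 and S1pr5 in classical and nonclassical monocytes (x axis) of the 4 libraries; dots with exact Poisson 95% intervals are libraries and grey crosses the 3 aliquots of each. Cx3cr1 in classical monocytes lies at 154 and 163 CPM in the 20-month libraries and at 249 and 296 CPM in the 12-month ones, with no overlap of aliquots within a strain.

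S1pr5, the sphingosine 1-phosphate receptor of patrolling monocytes and NK cells, was at 102 CPM in nonclassical monocytes of BL/6 at 12 months, 91.3 in BL/6 at 20 months, 77.5 in SM/J at 12 months and 68.7 in SM/J at 20 months. The age ratios were -0.16 (-0.39 to 0.06) and -0.17 (-0.54 to 0.19) on the log2 scale, so a difference between ages was not detectable at this depth. NK cells were at 86.0, 97.6, 135 and 91.1 CPM in the same order, with 15 to 39 UMIs from 50 to 89 cells, and these intervals overlapped each other and that of nonclassical monocytes of the same library. Macrophage-like cells had 17.4 to 28.7 CPM, and B cells 0 to 0.615 CPM. Most monocytes with an S1pr5 UMI also had one of Cx3cr1, and most NK cells with one did not. Of nonclassical monocytes in BL/6 at 12 months with an S1pr5 UMI, 152 also had a Cx3cr1 UMI and 18 did not. Of NK cells in that library, 11 with an S1pr5 UMI had Cx3cr1 too and 18 did not. The numbers of NK cells with and without it were 4 and 15, 3 and 16, and 5 and 6 in the other libraries. Cx3cr1 was itself rarer in NK cells, with a UMI in 20.2% of cells of BL/6 at 12 months against 85.8% of nonclassical monocytes.

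Cxcr4, which holds cells in the marrow through Cxcl12, was present in both monocyte classes, with 78.5 CPM in nonclassical monocytes of BL/6 at 12 months, 143 in BL/6 at 20 months, 181 in SM/J at 12 months and 162 in SM/J at 20 months. The younger BL/6 library was the low one, and its aliquots (72.6 to 86.8 CPM) lay under all those of the other 3 libraries (135 to 200.5 CPM). The BL/6 age ratio was 0.86 (0.63 to 1.10) and the SM/J ratio -0.16 (-0.40 to 0.07). Classical monocytes had 28.8 and 38.0 CPM in BL/6 and 55.0 and 29.6 CPM in SM/J. The last pair rests on 47 and 24 UMIs.

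Macrophage-like cells, led by complement and Prg4, a gene of serous cavity macrophages, carried Ccr2 at 98.5 and 155 CPM in BL/6 and at 105 and 16.6 CPM in SM/J. The low value is that of the 398 cells of SM/J at 20 months, where 4.77% of cells had a Ccr2 UMI. Their Cx3cr1 was 24.7 CPM against 32.1 to 58.5 CPM in the other 3 libraries, each with 19 to 30 UMIs.

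In B cells the highest member in each library was Cxcr5, which guides cells to follicles through Cxcl13. Ccr6, the Ccl20 receptor, came next in BL/6 at 12 months and lay under Cxcr4 in the other libraries. Cxcr5 was at 132 CPM in BL/6 at 12 months, 180 in BL/6 at 20 months, 135 in SM/J at 12 months and 113 in SM/J at 20 months. Among B cell clusters with at least 20 cells in a library the level stayed between 96.3 and 205 CPM. Aliquots of the ages did not overlap: 121 to 138 against 170 to 184 CPM in BL/6, and 131 to 140 against 112 to 114 CPM in SM/J. The BL/6 age ratios were 0.48 (0.22 to 0.74), 0.42 (0.20 to 0.64) and 0.53 (0.19 to 0.86) in clusters 0, 1 and 2, short of 1.5-fold. In SM/J clusters 3, 4 and 8 each interval included 0. The share of B cells with a Cxcr5 UMI was 37.2%, 44.8%, 42.5% and 60.6% in the library order above, against 0.142% to 5.39% of nonclassical monocytes at median depths of 5477 to 6508 UMIs. The highest share belongs to the deepest library and goes against its CPM, and after thinning to 1000 UMIs the order was 12.3%, 15.8%, 14.0% and 9.89%. The 5.39% is that of SM/J at 12 months, where 22 cells of a monocyte cluster numbered 25 had Cxcr5 at 122 CPM. B cell markers summed to 1350 CPM in nonclassical monocytes of that library and to 99.5, 115 and 614 CPM in the others, with all 8 detected in each. Their part in the monocyte Cxcr5 was not tested.

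Ccr6 divided the B cells far more sharply than Cxcr5. Over all B cells it was at 65.1 and 74.6 CPM in BL/6 and at 37.7 and 10.1 CPM in SM/J, from 12 to 20 months. In the clusters with follicular markers, numbered 0, 1 and 4, Ccr6 stood at 65.9 to 117 CPM in every library with at least 100 cells of the cluster. Outside them it was low: 19.4 and 28.8 CPM in cluster 2 of BL/6, 15.4 and 17.0 CPM in cluster 3 of SM/J, which scored highest for marginal zone markers with B-1 markers second and has the B-1 gene Bhlhe41 among its leading genes, 14.2 and 9.01 CPM in the B-1-like cluster 8, 5.71 CPM in cluster 26 and 1.73 CPM in the dividing cluster 20. Cr2, a complement receptor of follicular and marginal zone B cells, was the gene most like it over the class sums.

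Cxcr4 in B cells differed along the same line and added an age difference past 1.5-fold in BL/6. Over all B cells it was at 57.2 CPM in BL/6 at 12 months, 115 in BL/6 at 20 months, 47.8 in SM/J at 12 months and 13.7 in SM/J at 20 months. The aliquots of the 2 ages did not overlap in either strain: 46.7 to 62.8 against 93.4 to 124 CPM in BL/6, and 41.3 to 54.5 against 12.2 to 15.9 CPM in SM/J. Each main BL/6 cluster showed the higher value at 20 months: 66.7 and 133 CPM in cluster 0, 68.2 and 138 CPM in cluster 1, and 25.5 and 57.6 CPM in cluster 2. In SM/J the clusters differed less than the class, and each interval of their ratios included 0. Cluster 4 had 106 and 125 CPM, cluster 3 had 44.1 and 35.9 CPM and cluster 8 had 18.1 and 14.2 CPM at 12 and 20 months. Cluster 26, with 5.08 CPM, made up 52.9% of the B cells of SM/J at 20 months (50.4% to 55.3%, exact Clopper-Pearson) and 1.24% at 12 months, while cluster 4 made up 11.6% and 43.3%.

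**Figure D3:**
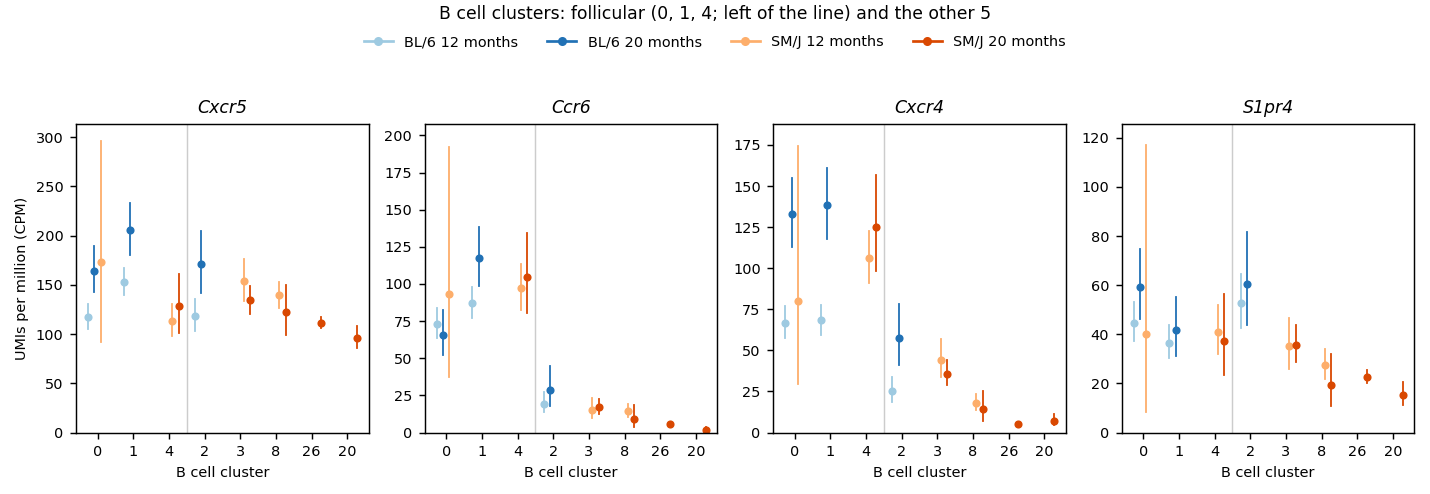
CPM (y axis, linear, one scale per receptor) of Cxcr5, Ccr6, Cxcr4 and S1pr4 in 8 B cell clusters (x axis) of the 4 libraries, drawn where a library has at least 20 cells of the cluster; bars are exact Poisson 95% intervals. Ccr6 is at 65.9 CPM or more in the follicular clusters left of the grey line and at 28.8 CPM or less to its right, while Cxcr5 stays between 96.3 and 205 CPM throughout.

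S1pr4, a lymphocyte receptor for sphingosine 1-phosphate, was found in all 3 lymphocyte classes, at 23.3 to 79.0 CPM. B cells had 43.1, 51.9, 33.2 and 23.3 CPM in the order BL/6 12, BL/6 20, SM/J 12 and SM/J 20 months, T cells 48.5, 41.8, 38.3 and 46.5 CPM, and NK cells 44.1, 50.5, 41.1 and 79.0 CPM with 7 to 20 UMIs a library. Monocytes of both classes had 3.51 to 16.7 CPM. The lowest B cell value came with cluster 26 (22.5 CPM), cluster 8 (19.3 CPM, from 15 UMIs) and cluster 20 (15.2 CPM). Over all libraries, 26.6% of cells of cluster 26 and 34.2% of cluster 20 had an S1pr4 UMI. The other named B cell clusters had one in 12.0% to 27.6% of cells. Median depths were 12477 and 27583 UMIs in clusters 26 and 20, and 2934 to 7366.5 UMIs in the others, so the lower CPM did not come with fewer positive cells there. Plasma cells of BL/6 at 20 months had 59.2 CPM from 47 cells and those of SM/J at 20 months 8.02 CPM from 26 cells, with 34 and 3 UMIs.

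Ccr9, the gut homing receptor for Ccl25, was rare in B cells, at 10.2 and 5.59 CPM in BL/6 and 3.07 and 5.33 CPM in SM/J from 12 to 20 months. These are sums of 83, 18, 20 and 104 UMIs, in 1.57% to 5.12% of cells, against 0 to 1.72% of nonclassical monocytes. Among BL/6 clusters with at least 20 cells, cluster 2 was the highest, at 23.8 and 13 CPM. Plasmacytoid dendritic cells, which use Ccr9 to reach the gut, had its highest level per UMI: 399 CPM (332 to 476) and 372 CPM (289 to 472) in SM/J at 12 and 20 months, with a UMI in 83.7% and 84.0% of cells. In BL/6, 67 UMIs came from 6 such cells and 64 from 11, and every cell had at least 1. By number of UMIs, B cells held the most Ccr9 in BL/6 at 12 months (37.9% of 219 UMIs) and in SM/J at 20 months (54.7% of 190 UMIs). No NK cell had a Ccr9 UMI, which allows levels of up to 6.62 to 18.2 CPM, taking 3 counts as the limit of a count of 0.

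Cxcr3, the receptor for interferon-induced chemokines, was found mainly in T cells and plasmacytoid dendritic cells. T cells had 47.3 CPM in BL/6 at 12 months, 44.5 in BL/6 at 20 months, 25.5 in SM/J at 12 months and 59.1 in SM/J at 20 months. Plasmacytoid dendritic cells of SM/J had 55.2 and 65.7 CPM. NK cells had 11, 13.5, 29.3 and 6.08 CPM in the library order of the T cells, from 1 to 5 UMIs, and the SM/J value of 12 months was above that of its T cells. Nonclassical monocytes gave 1 Cxcr3 UMI over all 4 libraries. B cells had 24 and 27 UMIs in BL/6 (2.95 and 8.39 CPM) and 1 and 4 UMIs in SM/J (0.154 and 0.205 CPM). Among BL/6 clusters with at least 20 cells it was highest in cluster 2, an unnamed cluster led by Agbl1 and Nt5e, at 5.54 and 27.4 CPM. Plasma cells of BL/6 at 20 months held 19 Cxcr3 UMIs (33.1 CPM) in 47 cells, while the 26 of SM/J held 0, which allows up to 8.02 CPM.

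Among T cells Cxcr3 differed by cluster. The naive cluster, numbered 14, had 0 Cxcr3 UMIs in all 4 libraries, from 88, 221, 160 and 54 cells, which allows up to 6.64, 2.73, 4.80 and 14.1 CPM. The effector or memory cluster 10 had 59.0 and 133 CPM in BL/6 and 106 and 170.3 CPM in SM/J. Divided further, the T cells with the highest Cxcr3 were subcluster 6, an unnamed group with Zbtb16 and Il4 among its leading genes, at 126 CPM over all libraries. Of the subclusters named naive, 4 and 9 held 1 UMI each. Subcluster 11, with 11 cells and platelet genes such as Ppbp in the lead, held 0. Subcluster 12, wholly of SM/J, stood at 36.7 CPM. Naive markers were its highest and CD8 markers second, and Gzmm was among its leading genes.

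Cxcr6, which holds T cells in liver and other tissues through Cxcl16, was concentrated in a few T cell groups. Over all T cells it was at 105 CPM in BL/6 at 12 months, 41.2 in BL/6 at 20 months, 15.1 in SM/J at 12 months and 46.5 in SM/J at 20 months. B cells had 0.872 to 1.85 CPM, and 0.577% to 1.00% of them carried a UMI against 3.06% to 24.6% of T cells, whose median depths were 4011 to 5203 UMIs. Subcluster 6 had 466, 327, 401 and 419.8 CPM in 33, 36, 11 and 15 cells, and the small subcluster 8, led by Il23r and Il17a, 333 CPM over 15 cells. The naive cluster 14 held 0, 0, 1 and 1 UMIs.

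**Figure D4:**
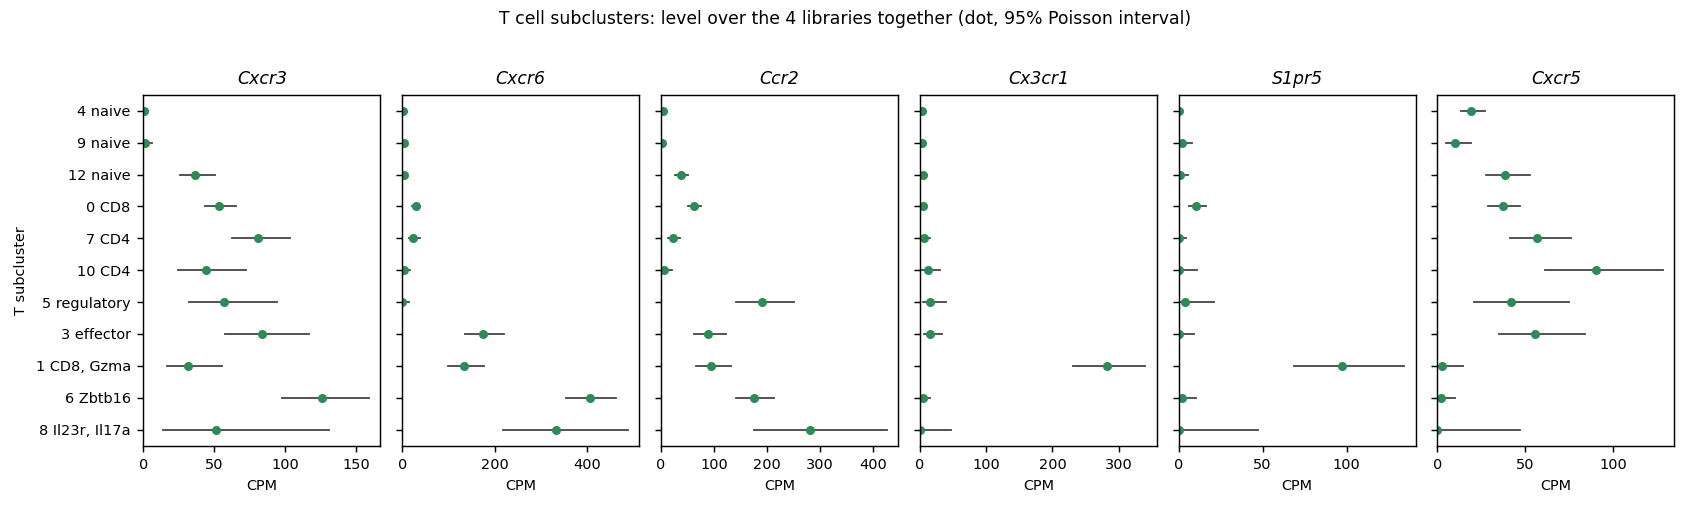
CPM over all 4 libraries together (x axis, linear, one scale per receptor) of Cxcr3, Cxcr6, Ccr2, Cx3cr1, S1pr5 and Cxcr5 in 11 of 13 T cell subclusters (y axis); bars are exact Poisson 95% intervals. Cxcr6 peaks at 406 CPM in subcluster 6, and Cx3cr1 (282 CPM) and S1pr5 (97.4 CPM) in subcluster 1, which is almost wholly of BL/6 at 12 months.

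Most of the T cell Cx3cr1 and S1pr5 in BL/6 at 12 months lay in 1 subcluster, with 101 of 126 Cx3cr1 UMIs and 36 of 47 S1pr5 UMIs. Cx3cr1 was at 48.8 CPM in BL/6 T cells at 12 months and at 3.92, 11 and 4.85 CPM in BL/6 at 20 months, SM/J at 12 and SM/J at 20 months. S1pr5 was at 18.2, 4.25 and 1.74 CPM in the first 3 of these, and 0 UMIs in SM/J at 20 months allow up to 2.91 CPM. Subcluster 1, CD8 cells with Zeb2, Gzma and Gzmb among their leading genes, held 96 of the 451 T cells of BL/6 at 12 months (21.3%, exact Clopper-Pearson interval 17.6% to 25.4%), spread over the aliquots as 32, 31 and 33 cells, and 4 of 530, 3 of 360 and 0 of 231 in the others. Its cells had Cx3cr1 at 287 CPM, S1pr5 at 102 CPM and Cxcr6 at 139 CPM in BL/6 at 12 months. NK cell markers in the whole T cell class summed to 1080 CPM in that library and to 118, 180 and 201 CPM in the others. All 8 were detected in the 12-month libraries, and Klra8 was at 0 in the 20-month ones. Without the subcluster, Cx3cr1 was 11.2 and 3.29 CPM in BL/6 T cells, from 25 and 10 UMIs.

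Ccr2 and Cxcr5 marked other T cells. Ccr2 was at 54.3 and 44.8 CPM in BL/6 and 42.3 and 70.8 CPM in SM/J T cells, highest over all libraries together in subcluster 8 (281 CPM), regulatory subcluster 5 (189.9 CPM) and subcluster 6 (175 CPM). Cxcr5, the follicular helper receptor, was at 27.5 and 32.4 CPM in BL/6 and 24.3 and 46.5 CPM in SM/J, highest, over all libraries together, in the CD4 subcluster 10 (90.6 CPM), with 3 BL/6 and 32 and 65 SM/J cells. Subclusters 7 (56.8 CPM) and 3 (55.5 CPM) followed. Ccr6 was scarce in T cells, with 4, 7, 1 and 13 UMIs in the 4 libraries, of which subclusters 5, 10 and 8 held most. NK cells had Ccr2 at 187 and 152 CPM in BL/6 and 93.9 and 115 CPM in SM/J, with 16 to 85 UMIs, and Cx3cr1 at 64.0, 47.1, 70.4 and 103 CPM.

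To set the members beside all other genes, each ratio between ages was called when it passed 1.5-fold in either direction on 100 UMIs or more over both libraries. The rule was applied to classes in which no library had under 100 cells. With 1 library a group this is a rule of size, not a test. B cells, T cells and nonclassical monocytes met the cell number, and 12 of the member ratios between ages were called. Classical monocytes, with 99 cells in SM/J at 20 months, fell short and were counted apart.

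In B cells of BL/6, 2 of the 5 members tested were called, against 3.81% of the 7890 genes tested. Cxcr4 was higher (0.99, interval 0.79 to 1.19) and Ccr9 lower (-0.77, interval -1.45 to -0.11), the latter with overlapping aliquots. Of the 83 Ccr9 UMIs at 12 months, 12 came from 2 cells of cluster 20. The median log2 ratio was 0.26 over the members tested and 0.04 over all genes. In B cells of SM/J, 3 of 5 were called, against 26.8% of 9707 genes: Cxcr4 (-1.73, interval -1.96 to -1.50) and Ccr6 (-1.81, interval -2.07 to -1.55) lower and Ccr9 (0.64, interval 0.08 to 1.19) higher, with medians of -0.49 over members and -0.04 over all genes. That background is itself large, and the share of cells in each cluster differed with it. Without clusters 20 and 26, Cxcr4 had a ratio of -0.12 (-0.38 to 0.15), Ccr6 of -0.38 (-0.69 to -0.06) and Ccr9 of 0.11 (-0.74 to 0.95) in SM/J, and Ccr9 had -0.56 (-1.25 to 0.11) in BL/6, while Cxcr4 in BL/6 kept 1.00.

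In T cells of BL/6, 2 of the 7 members tested were called, against 8.41% of 5806 genes, both lower at 20 months. They were Cx3cr1 (-3.34, interval -4.09 to -2.61) and Cxcr6 (-1.33, interval -1.64 to -1.03), and aliquots of the ages did not overlap for either. The effector or memory cluster 10 made up 39.5% of BL/6 T cells at 12 months and 9.62% at 20 months, and within it Cxcr6 was 275 and 281 CPM. In the CD8 cluster 12 it was 19.1 and 31.0 CPM, so inside both clusters the older library was not the lower one. Without subcluster 1 the Cxcr6 ratio was -1.27, and that of Cx3cr1 was -1.51 (-2.43 to -0.58), on too few UMIs to be called. In T cells of SM/J, 2 of 4 were called, against 5.07% of 3488 genes: Cxcr3 (1.18, interval 0.61 to 1.76), with no overlap of aliquots, and Ccr2 (0.73, interval 0.25 to 1.21), with overlap. The naive cluster 14 made up 44.4% of SM/J T cells at 12 months and 23.4% at 20 months. Within clusters Ccr2 was 204 and 231 CPM in cluster 10, 33.9 and 41.5 CPM in cluster 12, and 87.0 and 56.6 CPM in the CD4 cluster 16 at 12 and 20 months, and the interval of each ratio included 0. The Cxcr3 ratios were 0.68 (-0.26 to 1.70) in cluster 10, 0.50 (-0.51 to 1.47) in cluster 12 and 0.70 (-0.65 to 2.17) in cluster 16. Their intervals included 0 too, and cluster 14 held 0 Cxcr3 UMIs at both ages. The medians were -0.21 over members and -0.09 over all genes for BL/6, and 0.50 and 0.07 for SM/J.

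In nonclassical monocytes 2 of 4 members tested were called in BL/6, against 8.02% of 6622 genes, and 1 of 4 in SM/J, against 5.22% of 5518 genes. Ccr2 was higher in both strains and Cxcr4 higher in BL/6, with the values given above. The medians were 0.30 over members and 0.04 over all genes for BL/6, and -0.17 and -0.02 for SM/J. In classical monocytes the call was Cx3cr1 alone, lower at 20 months: 1 of 3 tested in BL/6, against 7.92% of 6505 genes, and 1 of 2 in SM/J, against 9.88% of 2966 genes.

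**Figure D5:**
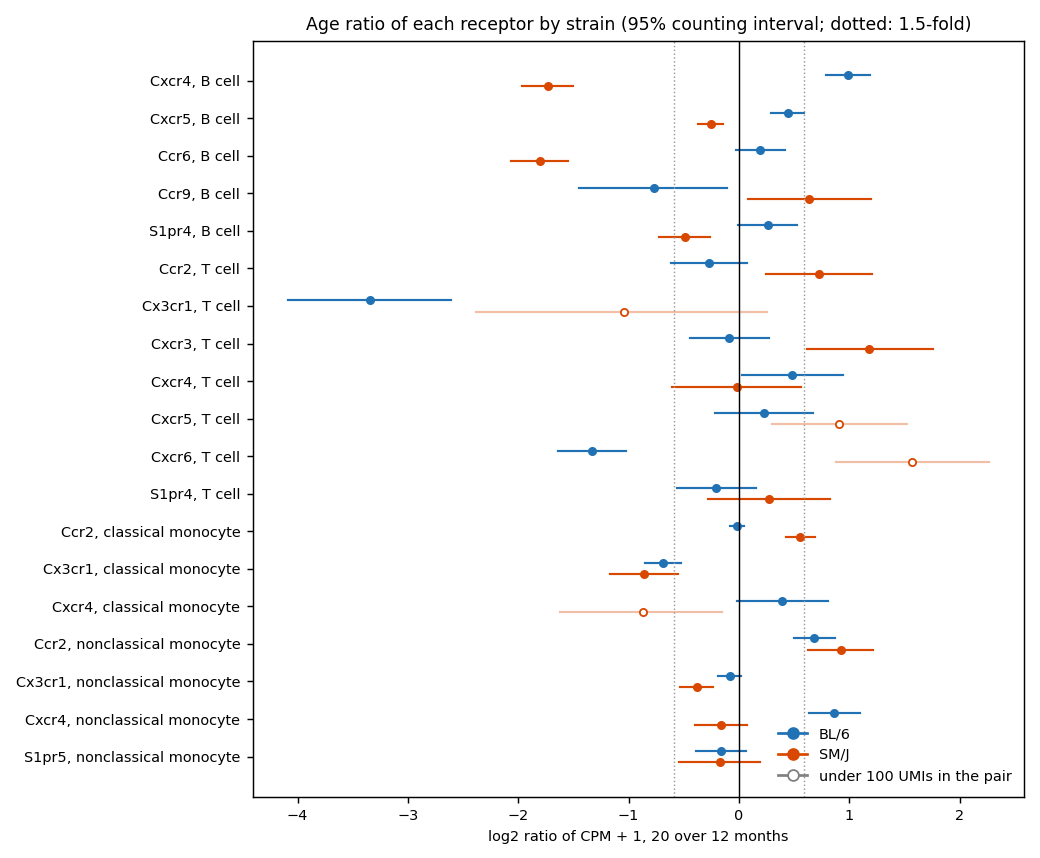
Log2 ratio of CPM + 1, 20 over 12 months (x axis), for members in 4 classes (y axis) in BL/6 (blue) and SM/J (orange); bars are 95% counting intervals, dotted lines mark 1.5-fold, and open dots have under 100 UMIs in the pair. Cx3cr1 in classical monocytes and Ccr2 in nonclassical monocytes lie on the same side in both strains, while Cxcr4 in B cells lies at 0.99 in BL/6 and -1.73 in SM/J.

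Between strains, 14 member ratios were called under the same rule. B cells and monocytes of the strains fell into different clusters, and the part of this in the ratios was not tested: BL/6 B cells lay mainly in clusters 0, 1 and 2 and SM/J B cells in clusters 3, 4, 8 and 26, and nonclassical monocytes in cluster 7 for BL/6 and 23 for SM/J. The reads of both strains were counted against mm10, a build made from BL/6, and the part of this was not tested. At 12 months 2 of 5 members tested in B cells were called, against 23.9% of genes, and both were lower in SM/J: Ccr6 (-0.77, interval -0.99 to -0.56) and Ccr9 (-1.46, interval -2.04 to -0.88). At 20 months it was 4 of 5, against 50.7% of genes, all lower in SM/J: Cxcr4 (-2.98), Ccr6 (-2.77), S1pr4 (-1.12) and Cxcr5 (-0.66). Without clusters 20 and 26 these were -1.33, -1.31, -0.71 and -0.47, the last no longer past 1.5-fold. With all clusters, Cxcr5 had 2207 UMIs in 1600 SM/J B cells and 578 in 802 BL/6 B cells at 20 months. S1pr4 had 455 and 167 UMIs in the same cells. At median depths of 9661.5 and 3423 UMIs, neither receptor was lower per cell in SM/J, only as a share of all UMIs.

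In T cells 4 of 7 members tested at 12 months were called, against 20.1% of genes. Cxcr6 (-2.72), Cx3cr1 (-2.05) and Cxcr3 (-0.87) were lower in SM/J, with no overlap of aliquots, and Cxcr4 (0.67) higher, with overlap. The effector or memory cluster 10 made up 39.5% of BL/6 and 9.17% of SM/J T cells at 12 months, with Cxcr6 at 275 and 166 CPM inside it. Subclusters 0, 4 and 7 were mostly of BL/6 and 9, 10 and 12 of SM/J, and their part in the ratios was not tested. Without subcluster 1, Cxcr6 had -2.64 and Cx3cr1 -0.33. At 20 months 1 of 6 was called, against 14.2% of genes, Ccr2 (0.65, interval 0.23 to 1.06), higher in SM/J with overlapping aliquots.

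In nonclassical monocytes 2 of 4 were called at 12 months, against 17.6% of genes. Cxcr4 was higher in SM/J (1.2, interval 0.96 to 1.44), with no overlap of aliquots, and Ccr2 lower (-0.85, interval -1.10 to -0.60), with overlap. At 20 months 1 of 4 was called, against 14.2% of genes, and Ccr2 was again lower (-0.61, interval -0.85 to -0.38), with no overlap of aliquots. Without the 3 cells of cluster 25 in SM/J at 20 months this last ratio was -0.57, short of 1.5-fold. In classical monocytes Cxcr4 was higher in SM/J at 12 months (0.91, interval 0.35 to 1.46), 1 of 3 tested against 19.2% of genes, and at 20 months 0 of 3 were called against 18.3%. Over all genes tested, the median log2 ratio was -0.16 in T cells at 12 months, 0.10 in nonclassical monocytes at 12 months and -0.14 in B cells at 20 months.

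The other genes of the trafficking system gave counts by class. Of 16 other chemokine receptors, 6 had enough UMIs in B cells of SM/J, and 2 were called between ages, against 26.8% of all genes, both lower at 20 months: Ccr7, which brings cells into lymph nodes (99.8 and 18.0 CPM), and the scavenger Ackr3 (64.6 and 5.69 CPM). In B cells of BL/6 it was 0 of 1, against 3.81%. In T cells of BL/6, 1 of 2 was called, against 8.41% of all genes, Ccr7, higher at 20 months (102 and 228 CPM), and in T cells of SM/J 0 of 2, against 5.07%. The naive cluster 14 made up 19.5% of BL/6 T cells at 12 months and 41.7% at 20 months. B cell cluster 8, with Ackr3 among its leading genes, made up 34.3% and 5.81% of SM/J B cells. The part of these shares in the Ccr7 and Ackr3 values was not tested. In classical monocytes 3 of 4 were called in BL/6, against 7.92% of all genes, and 1 of 2 in SM/J, against 9.88%, all higher at 20 months, with Ccr1 at 30.1 and 53.6 CPM in BL/6 and 30.4 and 112 CPM in SM/J. Ccrl2 and Cmklr1 were the others in BL/6. Nonclassical monocytes gave 0 of 2 in BL/6, against 8.02%, and 0 of 1 in SM/J, against 5.22%.

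Of 13 other egress and positioning genes, 6 of 12 tested were called in B cells of SM/J, 3 in each direction, where 26.8% of all genes were called, and 0 of 11 in BL/6, where 3.81% were. The difference between strains was not tested. In T cells of BL/6, where 11 were tested and 8.41% of all genes were called, Itga4 was lower, and in SM/J 0 of 11 were called, against 5.07%. Nonclassical monocytes gave 2 of 7 in BL/6, against 8.02% of all genes, with the oxysterol receptor Gpr183 higher and Itgb7 lower, and 0 of 6 in SM/J, against 5.22%. Of the 16 signalling and desensitization genes, 2 of 16 were called in B cells of BL/6 (Rgs2 higher, Rgs18 lower), against 3.81% of all genes. In B cells of SM/J it was 5 of 16 (Rac2 and Pik3cg higher, Rgs1, Rgs18 and Elmo1 lower), a share near the 26.8% of all genes. T cells gave 0 of 13 in BL/6, against 8.41%, and 0 of 11 in SM/J, against 5.07%. Nonclassical monocytes gave 0 of 16 in BL/6, against 8.02%, and 0 of 14 in SM/J, against 5.22%. Of the 6 genes of sphingosine 1-phosphate metabolism, 2 of 3 tested were called in B cells of SM/J, against 26.8% of all genes, Sgpl1 higher and Sgpp1 lower. In BL/6 it was 0 of 4 in B cells, against 3.81%, and 0 of 2 in T cells, against 8.41%. Too few UMIs left 0 to test in T cells of SM/J. Nonclassical monocytes gave 0 of 2 in BL/6, against 8.02%, and 0 of 2 in SM/J, against 5.22%.

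For each member, the 3 genes most like it were taken from the Pearson correlation of log2(CPM + 1) over 24 sums, of 8 classes with at least 50 cells in a library, among 9665 genes other than the member for 9 members and 9666 for Ccr9. The sums share libraries and depth, so the r values are descriptions. Cxcr5 went with Gm16152, Il9r and Fchsd2 (r from 0.89 to 0.90), and Ccr6 with Cr2 (0.93), Gm20429 (0.89) and Ighd (0.88). Cxcr3 went with Apol7e, the T cell factor Gata3 and Sh2d2a (0.92 to 0.94), and Cxcr6 with F2rl1, Gm39323 and Lrig1 (0.89 to 0.91). S1pr5 went with Hip1 (0.90), Fam78b (0.89) and the integrin Itgax (0.88), and S1pr4 with Jakmip1 (0.94), Zfp831 (0.93) and P2ry10 (0.92). Cx3cr1 went with Tab2, Tmem164 and Rnf166 (0.91 to 0.92), and Cxcr4 with Tmem156 (0.94), the NF-kB subunit Rel (0.93) and Xpo6 (0.93). The loosest were Ccr2, with Arrdc4, Fam129a and Chmp4b (0.85 to 0.87), and Ccr9, with Slamf6 (0.89), Dtx1 (0.85) and Gm16158 (0.85).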

How the data were processed

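Values in the deposited tables are unnormalized UMI counts and, per the file headers, come from Cell Ranger 7.0.1. The submitters' processing notes name the build mm10 and Seurat 4.3.0. The authors deposited 1 matrix for each strain and age, which includes counts of the tag oligos, and cells were put in aliquots by their leading tag.

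Cells with at least 500 UMIs, 200 genes and at most 10% mitochondrial UMIs were kept, and 125 doublets called by Scrublet (expected rate 0.06, run in scanpy 1.11.5) were removed. Counts were scaled to 10000 per cell, and 2000 variable genes without the receptors, 30 principal components, 15 neighbours and Leiden resolution 1 gave 27 clusters, named from fixed markers among 13 classes when at least 3 were detected. Raw counts were then summed per class and library. Exact Poisson, Clopper-Pearson and conditional binomial intervals (95%) were computed with scipy 1.17.1. With 1 library a group no test was made. Ratios used CPM + 1, and a call needed 1.5-fold, 100 UMIs over the pair and 100 cells a library. Names matched for 99.6% of genes. The computations were tested on simulated data. TMM scaling came from edgeR 4.0.16.

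The members and lists were chosen with earlier results of these data known. Named genes were the 10 members, the 3 genes most like each, and list genes where at most 5 were called. Alternatives covered scaling, pseudocount, mitochondrial limit, doublets, clustering, thinning and thresholds; leaving out B clusters 20 and 26, T subcluster 1 or monocyte cluster 25, and counting classical monocytes too, were added after seeing the data. The result for 1 gene of the wider lists is not reported here.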

Additional observations from a re-analysis of the deposited data

Results flagged for a closer look

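Cxcr4 in B cells was higher at 20 months in BL/6, by a log2 ratio of 0.99, and lower in SM/J, at -1.73, and the 3 aliquots of each age did not overlap in either strain. Ccr9 in B cells went the other way, at -0.77 in BL/6 and 0.64 in SM/J, on 18 to 104 UMIs a library, with overlapping aliquots in BL/6. Each strain has 1 library an age, and the difference between strains was not tested for either receptor. Without B clusters 20 and 26, Cxcr4 was at 1.00 in BL/6 and -0.12 in SM/J, and Ccr9 at -0.56 and 0.11.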

How the results depend on the processing

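The 12 calls between ages became 5 with a fold of 2, 19 with at least 50 UMIs and 7 with at least 200 UMIs, and the 14 between strains became 7 with a fold of 2. Other settings kept both counts within 1.5 times. The UMI minimum sets how many members are tested, and both thresholds set the share of all genes called. Neither number is given here for the changed thresholds, so these counts are not read as gains or losses of calls. Of 851 recomputed ratios, 755 stayed inside the counting interval of the reported value, 89 fell outside it, and 7 called ratios reversed. Ccr2 in nonclassical monocytes of BL/6 was -0.047 at resolution 2.0. Within clusters, between ages, Ccr6 in SM/J B cells was 0.13 in cluster 3 and 0.11 in cluster 4, Cxcr4 there 0.23 in cluster 4, Cxcr6 in BL/6 T cells 0.029 in cluster 10 and 0.67 in cluster 12, and Ccr2 in SM/J T cells -0.61 in cluster 16. The cause was not tested. All 56 shares of cells were lower after thinning, which removes UMIs. Class levels moved most often, 16 of 36, with a mitochondrial limit of 5%. No paired analysis was possible because each group has 1 library and the labels give no replicate numbers. Few cells limited the values of NK cells and plasmacytoid dendritic cells, and few UMIs those of rare receptors.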

Other observations

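A cluster of B lineage cells that could not be named, numbered 13, with B cell markers at the highest level but genes of plasmacytoid dendritic cells among its leaders, held 123 and 149 BL/6 cells and 69 and 11 SM/J cells at 12 and 20 months. Its Cxcr5, at 92.5 and 130.3 CPM in BL/6 and 89.5 CPM in SM/J at 12 months, lay under the 132, 180 and 135 CPM of all named B cells in those libraries. Its Ccr6 was 20.1, 10.3 and 26.9 CPM in the same libraries, from 6 to 10 UMIs. Basophils, a rare granulocyte, carried Ccr2 at 233 CPM in 40 BL/6 cells at 12 months and 566 CPM in 56 cells at 20 months.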
